A study of Homo sapiens with 16 samples.

Results

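The genes of cholesterol synthesis and their regulators, the sterol regulatory element-binding proteins (SREBPs), were followed in multiple myeloma cells treated with inhibitors of histone methyltransferases. The 32 genes were chosen by name, out of 32080 gene symbols on the arrays, and each was read from 1 probe, the one with the highest mean over the 16 arrays. They comprised 8 enzymes from acetyl-CoA to squalene, 10 enzymes from squalene to cholesterol, 3 genes of sterol sensing and transport, the 2 genes that encode the SREBPs and 9 genes of fatty acid and lipid synthesis. RPMI-8226 and MM.1S, established human lines of malignant plasma cells, were cultured with GSK126, an inhibitor of the H3K27 methyltransferase EZH2, at 1 µM, with UNC0638, an inhibitor of the H3K9 methyltransferase G9a (EHMT2), at 1 µM, with GSK126+UNC0638 at 1 µM each, or with the vehicle DMSO. The inhibitor groups were treated for 6 days, and the labels give no day for DMSO. Each of the 8 groups held 2 arrays, described as biological replicates, and p-values measure only the spread between these samples. Each line derives from the cells of 1 patient.

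Animal cells make cholesterol from acetyl-CoA through mevalonate, isoprenoids, squalene and lanosterol. When sterols in the endoplasmic reticulum run low, SCAP carries the SREBPs to the Golgi, where proteases release the part that enters the nucleus and switches on the genes of the pathway. When sterols are plentiful, INSIG proteins hold SCAP back. SREBP-2, from SREBF2, acts mainly on sterol genes, and SREBP-1, from SREBF1, mainly on fatty acid genes. The SREBPs are weak activators alone and are known to act beside NF-Y, which binds the CCAAT box, and Sp1, which binds the GC box.

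Because SREBPs act through short elements next to the start site, the promoter windows were read from the RefSeq table for GRCh38.p14, which held 28 of the 32 genes. ACAT2, FDFT1, SQLE and FASN have no entry there. Each window runs from 250 bases before to 50 bases after a start site, and a gene was counted where any of its windows held the letters on either strand. The CCAAT box (CCAAT) was found in 22 of the 28 genes, or 78.6%, against 39.7% of 27305 genes with a window. It was in 13 of 15 sterol enzymes with a window, or 86.7%, and in 5 of 8 fatty acid and lipid genes, or 62.5%. The GC box (GGGCGG) was found in 27 of 28 genes, or 96.4%, against 48.3% of all genes. The E-box (CACGTG) was in 3 of 28, LSS, SC5D and INSIG1, while 8.77% of all genes hold it. The sterol regulatory element as first described (TCACNCCAC) was in 1 of 28, SREBF2, or 3.57% against 1.39%. None of these letter strings contains another. A match is a description of the letters in a window and not a binding site. The 27305 genes were not matched to the members in number of windows, base composition or expression, so the shares are descriptive.

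The 250 bases before the start site are shown, 5′ to 3′ in the sense of the gene, for 4 of the genes described below that hold the CCAAT box and for PMVK, which held none and whose probe differed little between groups. They are examples, and whether the box goes with the response was not tested. CYP51A1, FADS1 and SREBF1 also held none, yet their probes were called lower with the combination in MM.1S cells. SCD, STARD4, ACSS2, SC5D and TM7SF2 held the box and were not called lower there. HMGCS1 and DHCR7 have 2 windows each, and the window shown was picked for the most CCAAT boxes, so positions are from its start site. Capitals mark the CCAAT box on either strand and, in SREBF2, the sterol regulatory element.
HMGCS1: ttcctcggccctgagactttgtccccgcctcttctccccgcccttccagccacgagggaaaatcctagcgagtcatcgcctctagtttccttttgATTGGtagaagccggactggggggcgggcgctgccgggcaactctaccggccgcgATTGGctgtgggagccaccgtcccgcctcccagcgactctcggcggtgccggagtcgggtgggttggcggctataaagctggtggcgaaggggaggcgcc
DHCR7: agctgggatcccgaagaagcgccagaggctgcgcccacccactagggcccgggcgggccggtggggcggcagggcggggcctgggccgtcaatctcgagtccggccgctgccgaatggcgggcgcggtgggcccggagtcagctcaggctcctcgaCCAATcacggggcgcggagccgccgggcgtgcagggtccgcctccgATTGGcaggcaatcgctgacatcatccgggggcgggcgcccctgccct
INSIG1: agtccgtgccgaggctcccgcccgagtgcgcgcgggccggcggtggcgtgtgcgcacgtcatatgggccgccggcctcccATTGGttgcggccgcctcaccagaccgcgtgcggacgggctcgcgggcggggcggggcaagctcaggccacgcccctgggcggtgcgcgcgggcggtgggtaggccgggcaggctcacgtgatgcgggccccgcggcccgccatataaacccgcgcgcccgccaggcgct
SREBF2: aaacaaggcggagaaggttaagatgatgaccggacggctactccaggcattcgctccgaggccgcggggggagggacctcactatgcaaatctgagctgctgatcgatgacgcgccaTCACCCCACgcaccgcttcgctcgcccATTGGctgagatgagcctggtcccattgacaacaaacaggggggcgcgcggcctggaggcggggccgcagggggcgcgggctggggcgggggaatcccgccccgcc
PMVK: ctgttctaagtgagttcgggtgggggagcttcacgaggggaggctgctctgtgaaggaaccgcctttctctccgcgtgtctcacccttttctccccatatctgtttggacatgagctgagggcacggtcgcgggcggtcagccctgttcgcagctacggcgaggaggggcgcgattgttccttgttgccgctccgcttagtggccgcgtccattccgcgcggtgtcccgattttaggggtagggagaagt
The HMGCS1 stretch lies at chr5:43313413-43313662 on the minus strand and holds 2 CCAAT boxes, both on the strand opposite to the gene, at −155 to −151 and −100 to −96 from the start site. The DHCR7 stretch, chr11:71448394-71448643 on the minus strand, holds 1 on the gene's strand at −94 to −90 and 1 on the other strand at −48 to −44. The INSIG1 stretch, chr7:155297628-155297877 on the plus strand, holds 1 at −170 to −166 on the strand opposite to the gene. In SREBF2, chr22:41832855-41833104 on the plus strand, the sterol regulatory element lies at −133 to −125 and the CCAAT box at −106 to −102 on the other strand. The PMVK stretch is chr1:154936720-154936969 on the minus strand.

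The arrays were 1-colour Agilent arrays, and a level is the log2 intensity of a probe minus the 75th percentile of its array, so that levels of different genes cannot be set against each other. All 32 genes passed the filter on dim probes in both lines, and 31 were well above background on all 16 arrays. The exception was SC5D, which in RPMI-8226 was well above background on 4 of 8 arrays. The 75th percentile lay between 256 and 477 intensity units, no spot was saturated, and replicates correlated at 0.985 to 0.995 over probes. The 7 plasma cell markers were above background on all arrays of both lines, with a summed level, relative to the 75th percentile, of 181 to 325 in RPMI-8226 and 384 to 583 in MM.1S. Of 15 markers of other cell types on the array, 7 were above background on all RPMI-8226 arrays (summed level 70.8 to 97.1) and 5 on all MM.1S arrays (1.47 to 2.21). The arrays of a line shared 1 slide and 1 scan, so line and slide cannot be told apart. Within a slide each treatment had 1 column and each replicate number 1 row, so treatment and slide column cannot be told apart either.

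In MM.1S cells the combination of both inhibitors lowered most of the cholesterol pathway. Of the 32 genes, 24 fell and 2 rose against DMSO (limma, adjusted p under 0.05), while 31.7% of 25102 probes tested were called lower and 22.2% higher. The fall exceeded 2-fold for 10 of the 24. Over the 18 sterol enzymes the median log2 fold change was −0.83 and over the 9 fatty acid and lipid genes −0.53, beside −0.11 over all genes tested, with 1 probe a gene. The groups did not overlap for 24 genes lower and 6 higher, against 46% and 32.8% of all probes. With the percentile taken over probes above background on all arrays, the median of all genes moved to 0.08, the medians of the sterol and fatty acid genes to −0.64 and −0.34, and the calls to 20 lower and 4 higher. Among all calls the higher share then moved from 41.2% to 58%.

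In bulk RNA, fewer cells of a kind and less RNA per cell cannot be told apart. The proliferation genes moved in the same comparison. Of 20 cell cycle genes, 19 were lower in MM.1S cells with the combination, with a median log2 fold change of −0.89 and per-array medians of −0.76 and −0.99, and their part in the fall of the sterol genes was not tested.

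**Figure D1:**
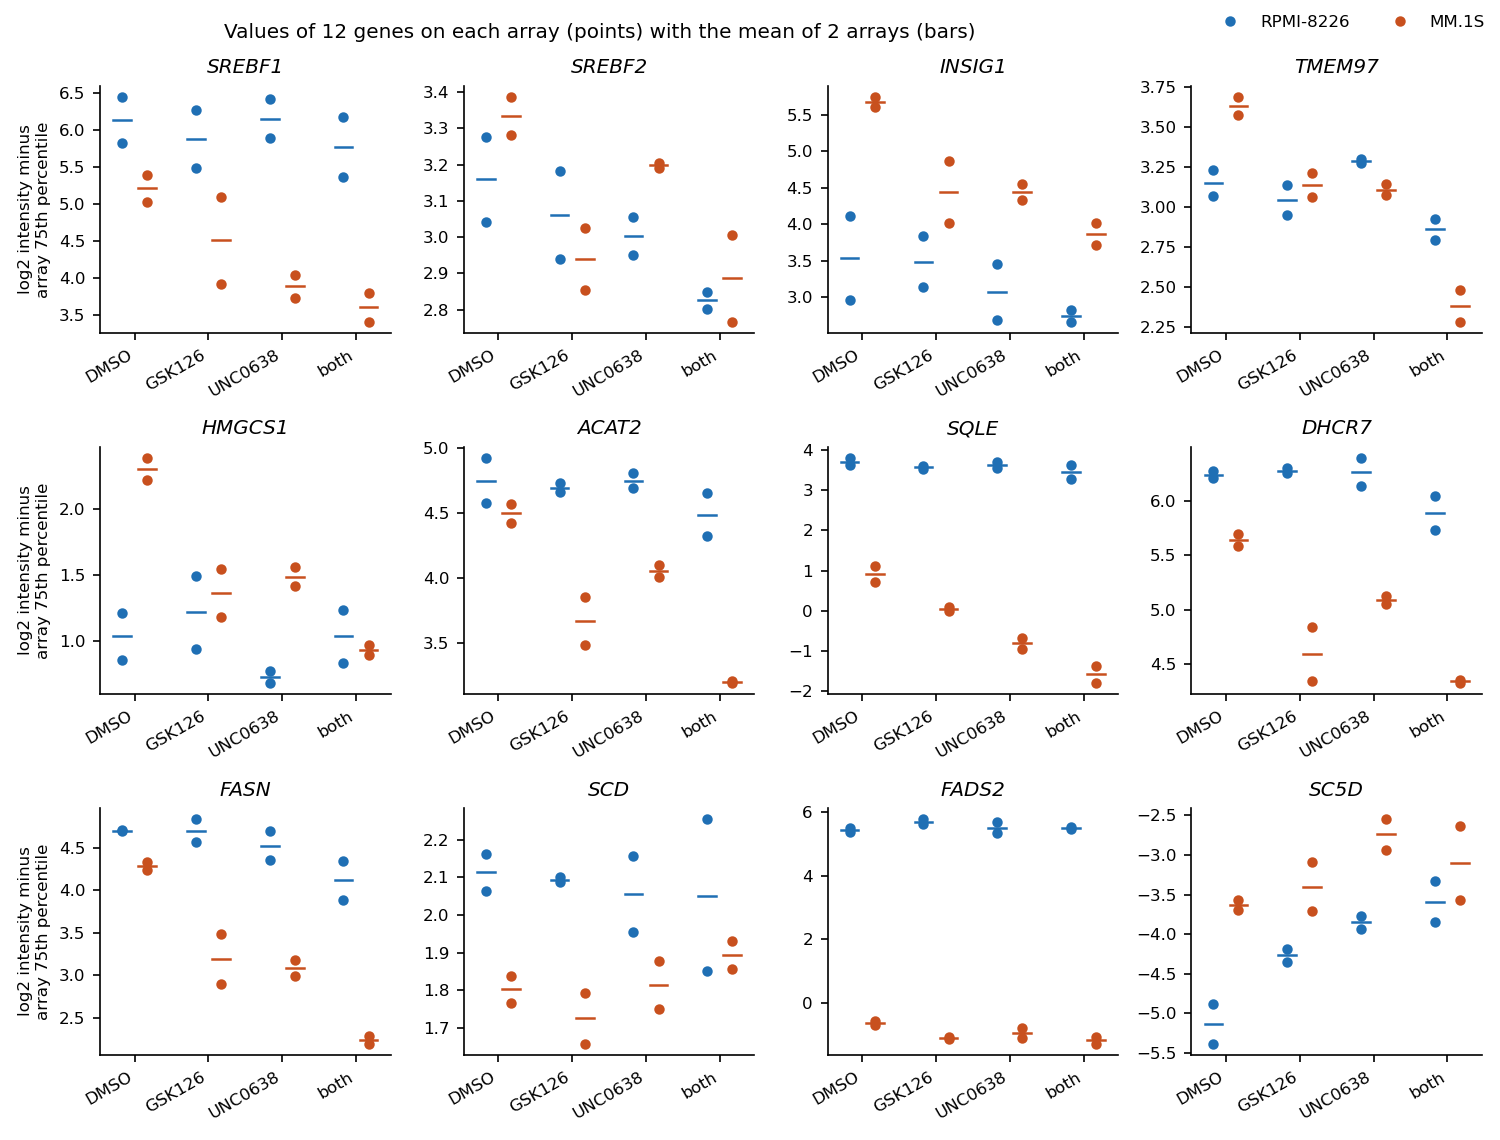
Level of 12 genes on each array, as log2 intensity minus the array's 75th percentile, in RPMI-8226 (blue) and MM.1S (orange) cells; points are arrays, bars the mean of 2, and "both" is GSK126+UNC0638. The MM.1S points of SQLE, FASN, INSIG1 and HMGCS1 fall from DMSO to the combination, those of SCD do not, and each panel has its own scale.

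The transcription factors themselves were measured first. SREBF1, which encodes SREBP-1, was read from a probe at chr17:17715419-17715478 on the minus strand of GRCh37 (whether a probe lies in a coding or untranslated exon was not analysed here). In MM.1S cells its level was 5.03 and 5.39 with DMSO, 3.92 and 5.09 with GSK126, 3.73 and 4.04 with UNC0638, and 3.41 and 3.80 with the combination. Both arrays with the combination and both with UNC0638 lay below both DMSO arrays, whereas 1 of the 2 GSK126 arrays lay between the DMSO arrays. The fall with the combination was 3.05-fold (log2 fold change −1.61, SE 0.39, adjusted p = 0.0147). A second SREBF1 probe, at chr17:17715304-17715363, fell by 0.12 (adjusted p = 0.312), so the probes of this gene disagree. The call of the first probe was lost without DMSO replicate 2 or combination replicate 1, and its lower value was in replicate 1 in all 8 groups of both lines.

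SREBF2, the gene for SREBP-2, shifted less. In MM.1S cells its probe (chr22:42302199-42302258, plus strand, GRCh37) read 3.39 and 3.28 with DMSO, 2.86 and 3.03 with GSK126, 3.20 and 3.19 with UNC0638, and 3.01 and 2.77 with the combination. Every array of the 3 inhibitor groups lay below both DMSO arrays. The combination passed the test at 1.36-fold lower (log2 fold change −0.45, SE 0.11, adjusted p = 0.0179), and the single inhibitors did not. That call was lost without DMSO replicate 1, without combination replicate 2, with quantile normalization, with the percentile over detected probes and with no filter.

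INSIG1, itself an SREBP target that closes the feedback loop, was among the most lowered. Its MM.1S levels (probe at chr7:155101843-155101902, plus strand, GRCh37) were 5.61 and 5.75 with DMSO, 4.02 and 4.87 with GSK126, 4.34 and 4.55 with UNC0638, and 3.71 and 4.02 with the combination. The DMSO arrays lay above every treated array. The combination lowered it by 3.51-fold (log2 fold change −1.81, SE 0.28, adjusted p = 0.0028). TMEM97, a sterol-regulated membrane protein, went from 3.69 and 3.58 with DMSO to 2.48 and 2.28 with the combination, a 2.38-fold fall (adjusted p = 0.000428). STARD4, which carries cholesterol between membranes, did not pass the test (log2 fold change 0.18, adjusted p = 0.154).

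Of the 8 enzymes that lead to squalene, 7 fell with the combination in MM.1S cells, with a median log2 fold change of −0.87. HMGCS1 makes HMG-CoA, the precursor of mevalonate, and its MM.1S levels (chr5:43290117-43290176, minus strand, GRCh37) were 2.38 and 2.21 with DMSO, 1.18 and 1.55 with GSK126, 1.41 and 1.56 with UNC0638, and 0.90 and 0.97 with the combination. The arrays with the combination were the lowest and the DMSO arrays the highest, with no overlap, and the fall was 2.58-fold (log2 fold change −1.37, SE 0.14, adjusted p = 0.000749). ACAT2, the thiolase of the preceding step, was at 4.57 and 4.43 with DMSO and at 3.21 and 3.20 with the combination, a fall of 2.46-fold (adjusted p = 0.000763). The enzymes that follow mevalonate fell by less than 2-fold, from 1.40-fold for mevalonate kinase, MVK, to 1.92-fold for farnesyl diphosphate synthase, FDPS. PMVK, phosphomevalonate kinase, was the exception of the 8. It read 4.06 and 3.95 with DMSO and 4.09 and 3.86 with the combination, and the 95% interval of its log2 fold change ran from −0.30 to 0.24.

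Of the 10 enzymes that turn squalene into cholesterol, 8 fell, 1 rose and 1 did not pass the test. SQLE, squalene epoxidase and a rate-limiting step of the pathway, showed the largest fall of the 32 genes. Its MM.1S levels were 1.12 and 0.70 with DMSO, −0.01 and 0.10 with GSK126, −0.67 and −0.95 with UNC0638, and −1.37 and −1.79 with the combination. The groups stepped down in that order without overlap, and the combination was 5.61-fold below DMSO (log2 fold change −2.49, SE 0.20, adjusted p = 0.000402). DHCR7, the last reductase of the pathway, went from 5.70 and 5.59 to 4.35 and 4.33, a 2.47-fold fall (adjusted p = 0.00131). The other 6 that fell, EBP, HSD17B7, MSMO1, NSDHL, CYP51A1 and LSS, did so by 1.62- to 1.95-fold. HSD17B7 has 5 probes, whose log2 fold changes ran from −0.87 to −0.10, and a near-identical pseudogene, so its value is uncertain. A second LSS probe did not pass the test (log2 fold change −0.55, adjusted p = 0.153). The LSS call was lost with the mean over the probes of the gene.

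TM7SF2, one of a pair of sterol C14 reductases, was the exception in direction. Its MM.1S levels were −0.08 and −0.25 with DMSO, −0.73 and −0.68 with GSK126, 0.28 and 0.25 with UNC0638, and 0.15 and 0.07 with the combination. It was lower with GSK126 (log2 fold change −0.54) and higher with UNC0638 (0.43, adjusted p = 0.0176). With the combination it was 1.21-fold higher (adjusted p = 0.0395), a call lost when any of 7 arrays was left out lost with no filter on dim probes and lost in 1 fit over all 16 arrays. SC5D, lathosterol oxidase, had log2 fold change 0.53 with a 95% interval of −0.33 to 1.38.

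Among the 9 fatty acid and lipid genes, 5 fell with the combination, 1 rose and 3 did not pass the test. FASN, fatty acid synthase, had MM.1S levels (chr17:80036216-80036275, minus strand, GRCh37) of 4.24 and 4.34 with DMSO, 2.89 and 3.49 with GSK126, 2.99 and 3.18 with UNC0638, and 2.20 and 2.29 with the combination. The combination arrays lay below all others and the fall was 4.12-fold (log2 fold change −2.04, SE 0.20, adjusted p = 0.000592). ACACA, acetyl-CoA carboxylase, fell by 2.55-fold and the desaturase FADS1 by 2.52-fold, while ACLY, which makes cytosolic acetyl-CoA, fell by 0.58 on the log2 scale and FADS2 by 0.53. A second FADS2 probe did not pass the test (log2 fold change −0.48, adjusted p = 0.0895).

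SCD and ELOVL6, which desaturate and lengthen the fatty acids that FASN makes, did not fall with FASN. The SCD probe (chr10:102123917-102123976, plus strand, GRCh37) read 1.77 and 1.84 with DMSO, 1.66 and 1.79 with GSK126, 1.88 and 1.75 with UNC0638, and 1.86 and 1.93 with the combination. These arrays overlapped for both single inhibitors, and the 95% interval of the log2 fold change with the combination was −0.13 to 0.32. For ELOVL6 the same interval was −0.32 to 0.40. ACSS2, the other source of cytosolic acetyl-CoA, had a log2 fold change of 0.29 (adjusted p = 0.238). LPIN1, a phosphatidate phosphatase, was called higher at 1.27-fold (adjusted p = 0.0374), but its 3 probes disagreed, with log2 fold changes of 0.35, 0.48 and −0.38.

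**Figure D2:**
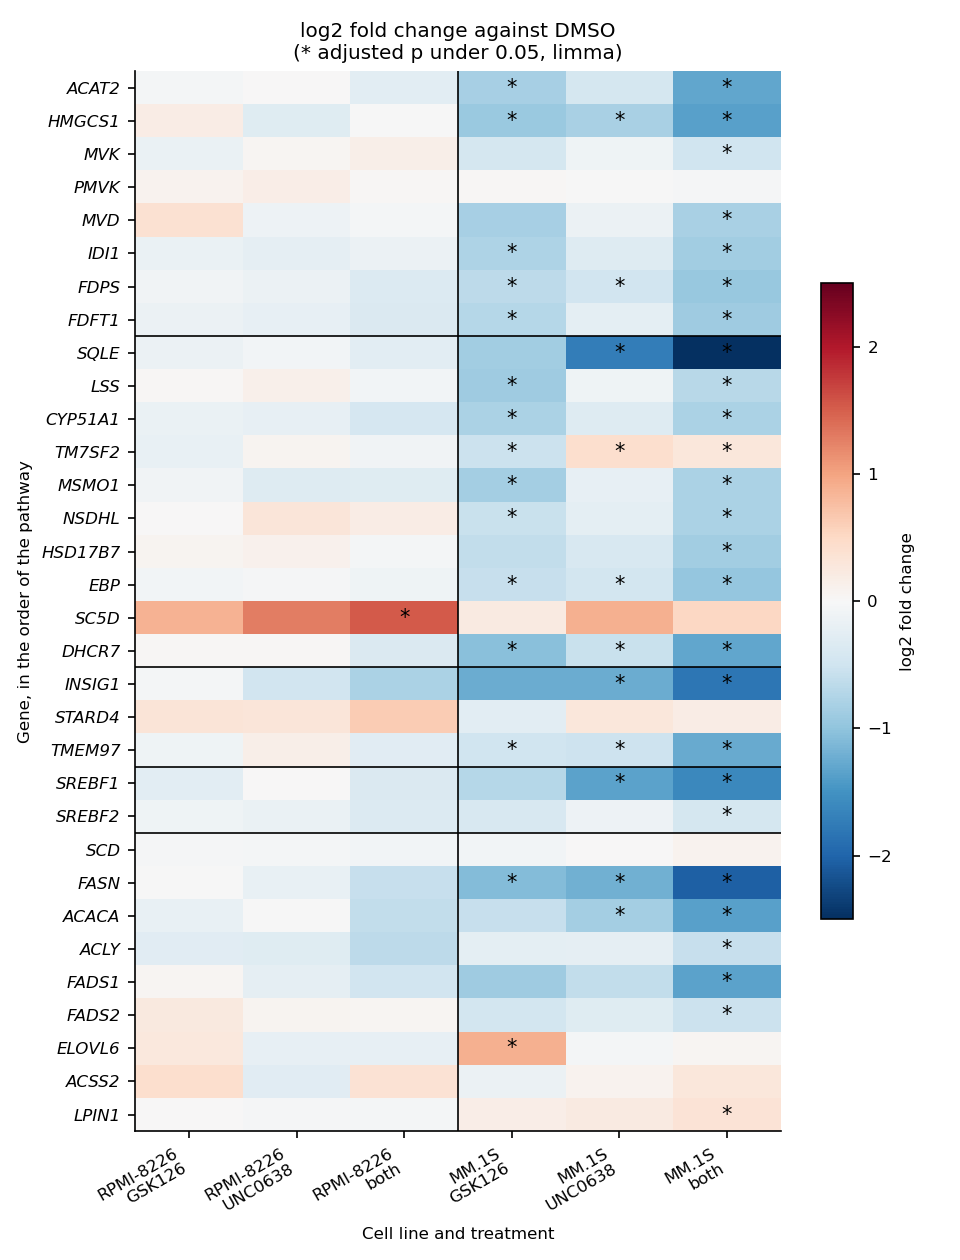
Log2 fold change over DMSO for the 32 genes (rows) in the 6 comparisons of an inhibitor group with DMSO (columns), coloured by size and direction, with an asterisk where the limma adjusted p was under 0.05. The MM.1S combination column has 26 asterisks, 24 of them on falls, and the RPMI-8226 combination column has 1.

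Either inhibitor alone lowered part of the pathway in MM.1S cells, and all 3 inhibitor comparisons of a line share its 2 DMSO arrays. With GSK126, 14 of the 32 genes were called lower and 1 higher, against 2.39% and 5.19% of all probes. Of the 14, 12 were sterol enzymes, and the median over the 18 sterol enzymes was −0.74 beside −0.24 over the fatty acid and lipid genes and −0.05 over all genes. DHCR7 fell by 1.05 on the log2 scale (adjusted p = 0.0217), HMGCS1 by 0.94, LSS by 0.90 and FASN by 1.09 (adjusted p = 0.0318). A second LSS probe had a log2 fold change of −1.05 and was not called (adjusted p = 0.0816). INSIG1 and SQLE, with log2 fold changes of −1.24 and −0.87, lay just past the threshold (adjusted p = 0.0536 and 0.0568). The one gene called higher was ELOVL6, at −1.22 and −1.48 with GSK126 against −2.07 and −2.40 with DMSO (log2 fold change 0.89, adjusted p = 0.0262). A second ELOVL6 probe had a log2 fold change of 0.80 and was not called (adjusted p = 0.207).

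None of the 15 GSK126 calls was kept with each array left out in turn, and some were lost without arrays outside the comparison. Without DMSO replicate 1 the count of 15 became 1, and without DMSO replicate 2 or without GSK126 replicate 1 it became 0. Leaving out either UNC0638 array gave 6 and either combination array 5, and with no filter on dim probes it was 0. The signs of the 15 were kept in every setting run. GSK126 replicate 1 lay below replicate 2 for 29 of the 32 genes, and the mean absolute difference between the GSK126 replicates over the genes was 0.34, against 0.15 in DMSO. Of the 20 cell cycle genes 1 was lower with GSK126, with a median of −0.11. Among all calls in this comparison the higher share was 68.5%, and it was 83.4% with the percentile over detected probes and 54.9% with another background correction.

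With UNC0638, 10 of the 32 genes were called lower and 1 higher in MM.1S cells, against 16.5% and 12.8% of all probes. SQLE fell by 3.29-fold (log2 fold change −1.72, adjusted p = 0.00393), SREBF1 by 1.33 on the log2 scale (adjusted p = 0.0479) at its first probe and by 0.11 at its second, INSIG1 by 1.24 (adjusted p = 0.0228) and FASN by 2.29-fold (adjusted p = 0.00906). The other genes called lower were HMGCS1, FDPS, EBP, DHCR7 (adjusted p = 0.0498), TMEM97 and ACACA. The median over the sterol enzymes was −0.28 and over the fatty acid and lipid genes −0.23. SQLE and FASN kept their call in all 18 settings run, and the count fell from 11 to 3 without either DMSO array, to 2 without UNC0638 replicate 1 and to 3 without UNC0638 replicate 2. Of the 20 cell cycle genes 11 were lower, with a median of −0.44, and their part was not tested. The higher share of all calls, 43.7%, was 59.6% with the percentile over detected probes.

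The combination was also set against each inhibitor alone, with no array of DMSO in the contrast. Against GSK126, 8 of the 32 genes were lower and 2 higher in MM.1S cells, with 22% and 15.1% of all probes called. Probes in general were called about as often or more often, so the counts are no result about these genes. SQLE fell further by 1.62 on the log2 scale, FASN by 0.95, ACACA by 0.78 and TMEM97 by 0.76. ELOVL6, called higher with GSK126 alone, was lower by 0.84 and so back near its DMSO level (log2 fold change over DMSO 0.04). Its call against GSK126 was lost when its 2 probes were averaged. TM7SF2 was higher by 0.82 (adjusted p = 0.00235) and STARD4 by 0.45 (adjusted p = 0.014). The count of 10 became 5 without GSK126 replicate 2 or combination replicate 1 and 4 without combination replicate 2. SQLE, TMEM97 and TM7SF2 kept the call in all 18 settings. Against UNC0638, 8 genes were lower and none higher, with 7.43% and 6.03% of all probes called. Those were ACAT2 (−0.85), DHCR7 (−0.75), TMEM97 (−0.73), FASN (−0.84), IDI1, FDFT1, NSDHL and EBP. That count became 0 without either UNC0638 array or without combination replicate 2, 2 without combination replicate 1, and 3 without either DMSO array.

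In RPMI-8226 cells the same treatments moved few of these genes past the test. None of the 32 was called by limma with GSK126 or with UNC0638, with 1 at an unadjusted p under 0.05 in each, while 0.547% and 0.556% of 23199 probes were called higher and 0.0517% and 0.0776% lower. Neither did limma call any when the combination was set against GSK126 (2.01% of probes higher, 0.543% lower) or against UNC0638 (2.69% and 0.698%), where 2 and 3 genes had an unadjusted p under 0.05. With the combination against DMSO 1 was called higher and none lower, against 7.2% and 5.17% of all probes, and 2 higher and 4 lower had an unadjusted p under 0.05. The shares of all probes given here are at the adjusted threshold. The unadjusted counts have no such share beside them and are no result about these genes. The groups did not overlap for 14 genes lower and 3 higher, against 39.2% and 22% of all probes. The median over the sterol enzymes was −0.10, the same as over all genes, and turned to 0.03 with the percentile over detected probes, under which the higher share of all calls moved from 58.2% to 75.2%. Of the 20 cell cycle genes 2 were lower with the combination, with a median of −0.34.

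SQLE, HMGCS1 and SCD were called with none of the treatments in RPMI-8226 cells. SQLE read 3.80 and 3.62 with DMSO, 3.60 and 3.54 with GSK126, 3.56 and 3.71 with UNC0638, and 3.63 and 3.28 with the combination (log2 fold change −0.26, adjusted p = 0.34). HMGCS1 read 1.21 and 0.85, 0.94 and 1.49, 0.68 and 0.77, and 1.23 and 0.83 in the same order, and the 95% interval of its change with the combination was −0.59 to 0.59. The arrays of every RPMI-8226 group overlapped those with DMSO for HMGCS1, except UNC0638, which lay below them. For SCD the log2 fold change with the combination was −0.06.

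INSIG1 and SREBF1 varied widely between RPMI-8226 replicates, and for each gene replicate 1 was the lower in all 8 groups of both lines. The fit without the replicate number, used for the values here, counts that offset as spread. INSIG1 was at 2.96 and 4.12 with DMSO, 3.14 and 3.83 with GSK126, 2.68 and 3.45 with UNC0638, and 2.66 and 2.82 with the combination, and the 95% interval of its log2 fold change with the combination ran from −1.86 to 0.27. SREBF1 was at 5.83 and 6.44 with DMSO and at 5.36 and 6.18 with the combination (adjusted p = 0.569). SREBF2 was at 3.04 and 3.28 with DMSO and at 2.85 and 2.80 with the combination (log2 fold change −0.33, adjusted p = 0.2). Intervals as wide as that of INSIG1 do not show that these genes kept their level.

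FASN read 4.71 and 4.70 with DMSO, 4.56 and 4.84 with GSK126, 4.35 and 4.70 with UNC0638, and 3.89 and 4.34 with the combination, so that both arrays of the combination lay below both of DMSO (log2 fold change −0.59, adjusted p = 0.12). ACACA and ACLY had log2 fold changes of −0.61 and −0.65 (adjusted p = 0.0974 and 0.0598). The replicate numbers pair the RPMI-8226 arrays, and with the number as a block 4 genes were called: FASN (adjusted p = 0.0476) and ACLY (adjusted p = 0.0336) lower, STARD4 (log2 fold change 0.64, adjusted p = 0.0322) and SC5D higher. In that fit 10.6% of all probes were higher and 9.96% lower.

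The 1 gene called without the block was SC5D, and its values are given as a description. Its levels were −4.88 and −5.38 with DMSO, −4.35 and −4.19 with GSK126, −3.77 and −3.94 with UNC0638, and −3.33 and −3.85 with the combination (chr11:121183280-121183339, plus strand, GRCh37). It was not well above background on any DMSO or GSK126 array and passed the filter on dim probes only through the groups where it was brighter, so its call supports no change. In the processed intensity its combination mean was 1.75-fold above the dimmest probe of any gene counted as above background on the DMSO arrays. That is no lower bound for SC5D, which at −4.19 on a GSK126 array was itself not well above background. With normexp background correction the log2 fold change was 0.33 (adjusted p = 0.137). The call was also lost without DMSO replicate 2 and without combination replicate 1.

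Whether the lines responded differently was tested in 1 fit over the 16 arrays, as the RPMI-8226 change minus the MM.1S change. For the combination 10 of the 32 genes were called, all of them with the lower change in MM.1S, while 7.28% of 26931 probes were called in that direction and 6% in the other. Of the 10, 8 were sterol enzymes, ACAT2, HMGCS1, FDPS, SQLE, NSDHL, HSD17B7, EBP and DHCR7, and the others were TMEM97 and FASN. The difference was 2.23 on the log2 scale for SQLE (SE 0.27, adjusted p = 0.000763), 1.46 for FASN (SE 0.31, adjusted p = 0.0132) and 1.37 for HMGCS1 (SE 0.30, adjusted p = 0.0164). For INSIG1 it was 1.01 (adjusted p = 0.287), with a 95% interval of −0.28 to 2.31, and for SREBF1 1.25 (adjusted p = 0.215), with an interval of −0.12 to 2.61. With the replicate number as a block SREBF1 was called (adjusted p = 0.0209), as were MVK and ACACA. The median difference was 0.74 over the sterol enzymes, 0.07 over the fatty acid and lipid genes and 0.08 over all genes.

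The count of 10 became 5 without RPMI-8226 DMSO replicate 2 or without MM.1S DMSO replicate 1, and 6 without MM.1S combination replicate 2. SQLE, NSDHL, EBP, TMEM97 and FASN kept the call in all 25 settings run. For UNC0638 alone SQLE was called (difference 1.64, SE 0.27, adjusted p = 0.0135), against 1.11% of all probes in that direction, and the call was lost without RPMI-8226 UNC0638 replicate 2 or MM.1S UNC0638 replicate 2. For GSK126 alone limma called none of the 32, with 0.356% and 0.427% of all probes called at the adjusted threshold. The nearest was DHCR7 (difference 1.08, adjusted p = 0.0825). At an unadjusted p under 0.05, 18 differed with the lower change in MM.1S and 1 with the higher. No share of all probes at that unadjusted threshold stands beside these counts, so they are no result about the genes.

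**Figure D3:**
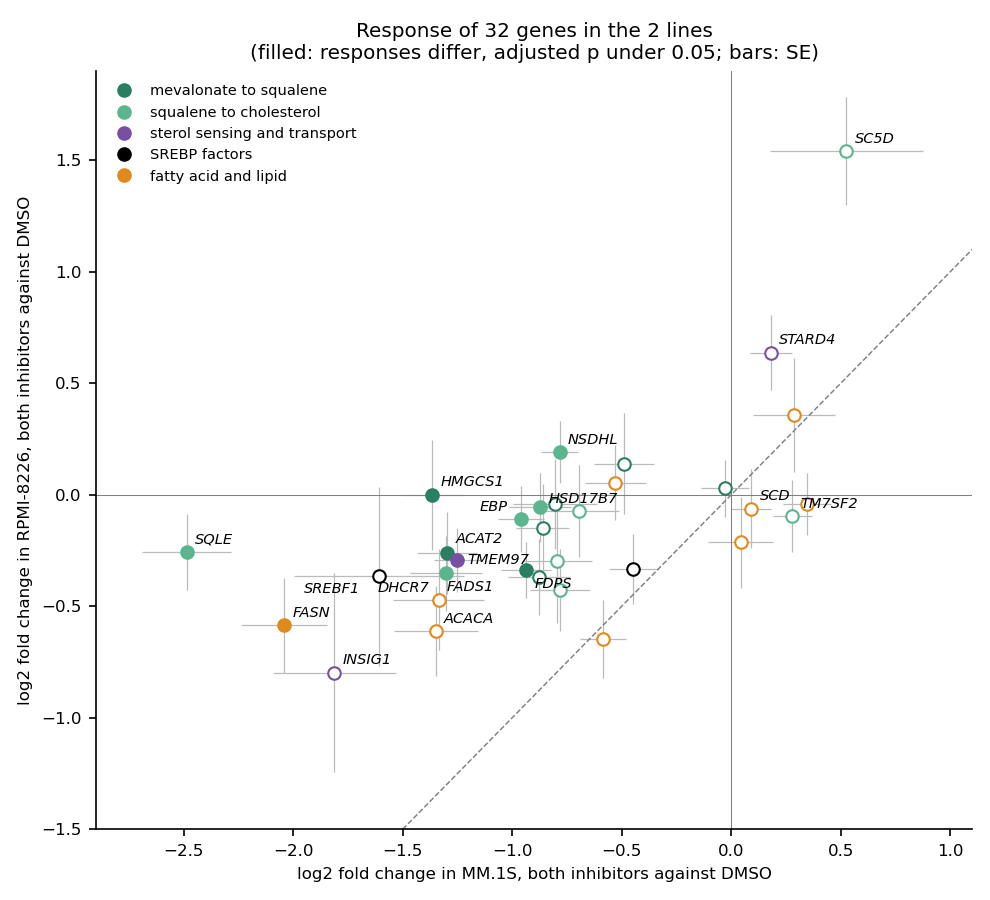
Log2 fold change with GSK126+UNC0638 over DMSO in MM.1S (horizontal) and in RPMI-8226 (vertical) for the 32 genes, with standard errors as bars, a dashed line of equal change, and filled points for the 10 genes whose responses differed between the lines. The filled points lie above the line, SQLE farthest from it.

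Sterol genes were then compared with fatty acid and lipid genes within each array, as the median of each list relative to the DMSO mean. In MM.1S cells with GSK126, the sterol median lay 0.53 and 0.43 below the fatty acid median on the 2 arrays, where the 2 DMSO arrays differed by 0.09 in either direction. With UNC0638 the differences were −0.16 and 0.04, and with the combination −0.37 and −0.21. Sterol enzymes were thus the lower list on both arrays with GSK126 and with the combination, and neither list was lower on both arrays with UNC0638. In RPMI-8226 cells the difference was −0.08 and −0.05 with GSK126, 0.09 and 0.05 with UNC0638, and 0.24 and 0.07 with the combination, with 0.03 in either direction in DMSO. The values are descriptive, since a list holds genes of 1 pathway. Taken from the fitted fold changes, the MM.1S difference between the list medians with the combination was −0.30, and it moved to −0.10 with quantile normalization.

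**Figure D4:**
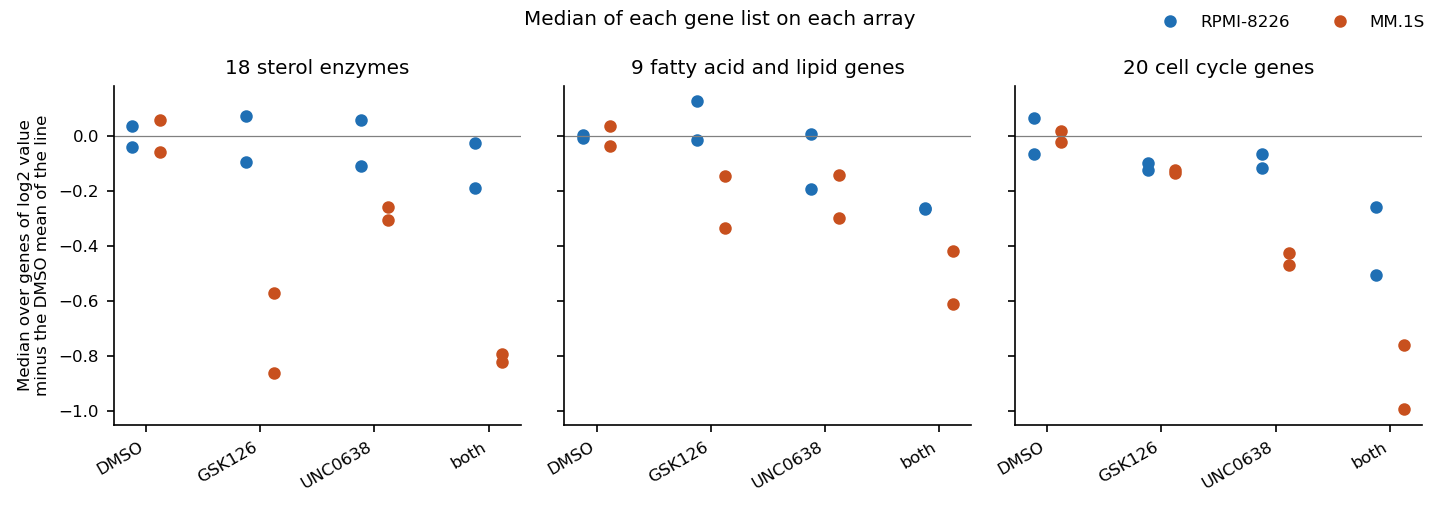
Median over genes of the level relative to the DMSO mean (log2), on each array, for the 18 sterol enzymes, the 9 fatty acid and lipid genes and the 20 cell cycle genes, in each group of both lines. The MM.1S sterol points sit at −0.86 and −0.57 with GSK126, −0.30 and −0.26 with UNC0638, and −0.79 and −0.82 with the combination.

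The sterol enzymes and the cell cycle genes did not move in the same order over the treatments. In MM.1S cells the cell cycle medians were −0.14 and −0.12 with GSK126, −0.43 and −0.47 with UNC0638 and −0.76 and −0.99 with the combination, whereas the sterol medians were lower with GSK126 than with UNC0638. The fatty acid medians were −0.33 and −0.14 with GSK126, −0.14 and −0.30 with UNC0638 and −0.42 and −0.61 with the combination, so that the single inhibitors overlapped. With GSK126, 12 of the 18 sterol enzymes and 1 of 20 cell cycle genes were called lower, beside 2.39% of all probes. Each of those GSK126 calls of the sterol enzymes was lost when some array was left out, for part of them also an array outside the comparison. The part of the cell cycle genes in the fall of the sterol genes was not tested. In RPMI-8226 cells with the combination the cell cycle medians were −0.51 and −0.26, the fatty acid medians −0.26 on both arrays and the sterol medians −0.03 and −0.19.

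In DMSO 8 of the 32 genes were higher in RPMI-8226 and 13 higher in MM.1S, against 28.4% and 29.3% of all probes, and line cannot be separated from slide. Probes in general differed about as often, so the counts are no result about these genes. Of the 18 sterol enzymes 9 were higher in MM.1S and 3 in RPMI-8226 (median −0.39, RPMI-8226 minus MM.1S), while of the 9 fatty acid and lipid genes 1 was higher in MM.1S and 5 in RPMI-8226 (median 0.69), beside −0.01 over all genes. FADS2 had the widest gap, with 5.39 and 5.50 in RPMI-8226 and −0.71 and −0.58 in MM.1S, or 67.8-fold. SQLE was 6.97-fold, ELOVL6 6.52-fold and FADS1 2.89-fold higher in RPMI-8226. INSIG1 was 4.41-fold, MSMO1 4.13-fold, LSS 3.52-fold and CYP51A1 2.93-fold higher in MM.1S. SC5D, counted among the 13, was not well above background in RPMI-8226 with DMSO, and with normexp background correction its log2 difference was −0.02 (adjusted p = 0.918). Of the 21 genes, 18 kept the call in all settings run. SQLE, which fell most in MM.1S, was thus already lower there, and INSIG1, which fell 3.51-fold there with the combination, remained at 3.71 and 4.02, beside 2.96 and 4.12 in RPMI-8226 with DMSO.

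**Figure D5:**
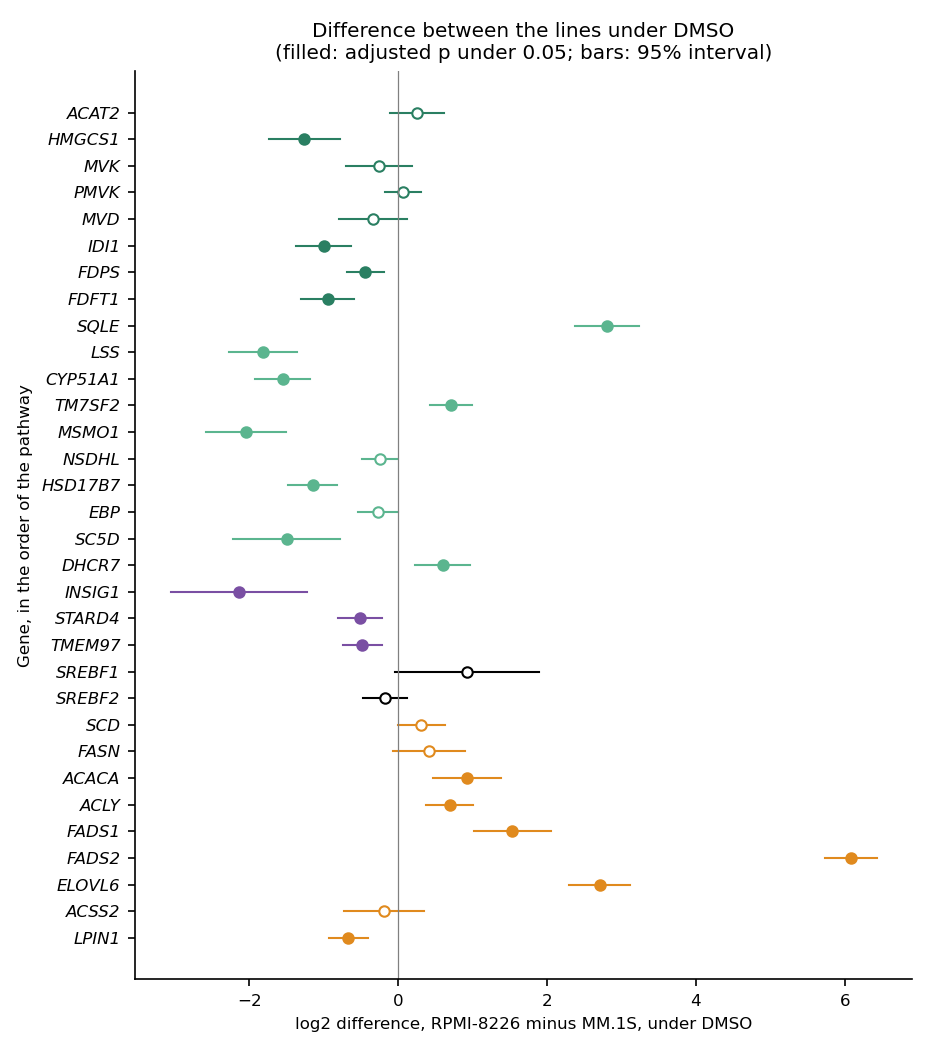
Difference in log2 level between RPMI-8226 and MM.1S cells in DMSO for the 32 genes, with 95% intervals, filled where the adjusted p was under 0.05. FADS2, SQLE and ELOVL6 lie farthest to the RPMI-8226 side and INSIG1, MSMO1 and LSS farthest to the MM.1S side.

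A further list of 61 genes of sterol and fatty acid metabolism put these members in context. In MM.1S cells with the combination 11 of 58 that passed the filter were higher and 23 lower, with a median of −0.24, beside 22.2% and 31.7% of all probes. With GSK126 2 were higher and 3 lower (5.19% and 2.39% of all probes), and with UNC0638 5 and 13 (12.8% and 16.5%). In RPMI-8226 cells with the combination 2 of 56 were higher and 1 lower, beside 7.2% and 5.17% of all probes. The counts are a description beside those shares, for the whole list and for its groups, and no result about the list is read from them. Of the 13 genes of SREBP processing, 3 were higher and 5 lower in MM.1S with the combination, and of 19 other fatty acid and glycerolipid genes 3 were higher and 11 lower (median −0.45). The 11 genes of branches of the mevalonate pathway had 2 higher and 3 lower, and the 15 of sterol storage, export and transport 3 higher and 4 lower.

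Among them, VLDLR, a receptor for lipoproteins, rose in MM.1S cells from −1.42 and −1.36 with DMSO to 0.14 and 0.17 with the combination (log2 fold change 1.54, adjusted p = 0.000137). LPCAT3, which remodels phospholipids, fell from 3.64 and 3.84 to 2.17 and 2.26 (log2 fold change −1.53, adjusted p = 0.00175), and PDSS1, which builds the side chain of ubiquinone, from 2.41 and 2.24 to 1.09 and 1.05 (−1.26, adjusted p = 0.00029). In RPMI-8226 cells the 3 genes called were DGAT2, a triglyceride synthase, SCARB1, an HDL receptor, and INSIG2. DGAT2 rose from −1.77 and −1.75 to −0.06 and −0.48 (1.49, adjusted p = 0.00622). SCARB1 fell from 6.75 and 6.51 to 5.77 and 5.84 (−0.82, adjusted p = 0.0334), and in MM.1S cells its log2 fold change was −1.14. INSIG2, which like INSIG1 retains SCAP, rose in RPMI-8226 cells by 0.57 (adjusted p = 0.0437) and fell in MM.1S cells by 0.37 (adjusted p = 0.011), and the difference of 0.93 between the lines passed the test (SE 0.14, adjusted p = 0.00265).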

How the data were processed

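RNA from 2 biological replicates of each of the 8 groups was measured on 1-colour Agilent human arrays. The authors deposited 1 scanner file per array, with 62976 spots, of which 4259 are controls. The unit is intensity: the deposited values used here are background-corrected by Agilent Feature Extraction (10.7 in the submitters' processing notes, 10.7.3.1 in the file headers), and the deposited intensity had not been normalized between arrays. Probe positions are those of GRCh37 in the files. A second deposited table holds the same intensity rounded, on a linear scale without centring (array medians 12.3 to 25.4), and served as an alternative.

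From the deposited intensity, log2 values minus the 75th percentile of each array were computed. Control spots and 220 to 358 outlier spots per array were left out, and spots of a probe were averaged, giving 50599 probes (46204 with a symbol). Within a line, probes were kept that stood well above background on each array of some group (23199 in RPMI-8226, 25102 in MM.1S, 26931 in either). Groups were compared with limma 3.58.1 in R 4.3.3 (data.table version 1.17.8), lmFit and eBayes, with 1 fit per line (8 arrays) and a fit to all 16 arrays where the lines were compared, two-sided, with Benjamini-Hochberg adjustment over all probes kept at 0.05. The scripts were tested on simulated data. The number of arrays limits the precision.

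Members were matched by the GeneName column, SC5D as SC5DL, 25 with 1 probe and 7 with several. The members and the gene lists were chosen with earlier results of these data known. Every member may be named, with all array values for SREBF1, SREBF2, INSIG1, HMGCS1, SQLE, FASN, SCD and, per line, the 5 members called with the largest change with the combination, and, of the other pathway genes, the 3 called with the largest change per line. Array values of other members were added after they were seen. Same-numbered arrays deviated together in RPMI-8226 (correlations 0.254 to 0.415 in 6 of 6 pairs of groups), and the number is also the row of the slide. Alternatives were other normalizations, background corrections, filters, probe rules and model fits, a replicate block, and each array left out.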

Additional observations from a re-analysis of the deposited data

Results flagged for a closer look

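The responses of 10 of the 32 genes to GSK126+UNC0638 differed between the lines, by a test of the difference itself (limma over the 16 arrays, RPMI-8226 change minus MM.1S change). The difference on the log2 scale was 2.23 for SQLE (adjusted p = 0.000763), 1.46 for FASN (adjusted p = 0.0132), 1.37 for HMGCS1 (adjusted p = 0.0164), 1.04 for ACAT2 (adjusted p = 0.0175) and 0.97 for NSDHL (adjusted p = 0.00256). It was 0.96 for TMEM97 (adjusted p = 0.00581), 0.95 for DHCR7 (adjusted p = 0.0266), 0.85 for EBP (adjusted p = 0.0103), 0.82 for HSD17B7 (adjusted p = 0.0289) and 0.60 for FDPS (adjusted p = 0.033). The response of SQLE to UNC0638 alone differed by 1.64 (adjusted p = 0.0135). In each the change was lower in MM.1S than in RPMI-8226, and line cannot be told apart from slide. For the combination, the call held in all 25 settings run for SQLE, NSDHL, EBP, TMEM97 and FASN, and not for the other genes. FDPS, HSD17B7 and DHCR7 lost it with no filter on dim probes. FDPS also lost it with quantile normalization, and HSD17B7 with the mean over its probes.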

How the results depend on the processing

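The limits are 2 arrays a group, 1 slide a line, and intensities near background for SC5D in RPMI-8226. Calls of the combination in MM.1S held for 18 of 26 genes in all 18 settings run, those of GSK126 for 0 of 15, of UNC0638 for 2 of 11, and no called gene changed direction in any setting. Causes were not tested. Slide as a block was not run, since each line lay on 1 slide. Deposited table values in place of the scanner files moved no count past 1.5 times.

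Counts of genes called moved as follows. For the combination in RPMI-8226 the 1 became 2 with quantile normalization, with the percentile over detected probes or with the mean over probes, and 5 with 1 fit over all 16 arrays or with an intensity-dependent prior variance. Against UNC0638 in RPMI-8226 the combination had 1 with the fit over 16 arrays. For GSK126 in MM.1S the 15 became 23 with normexp, 0 with no filter and 24 with the intensity-dependent prior variance, and for UNC0638 the 11 became 3 with no filter and 17 with that prior variance. Against GSK126 the combination's 10 became 5 with no filter. Against UNC0638 its 8 became 20 with normexp, 3 with the percentile over detected probes, 0 with no filter, 14 with the filter for all arrays and 21 with the intensity-dependent prior variance. Between the lines, the 0 for GSK126 became 2 with normexp and 1 with that prior variance, and the 1 for UNC0638 became 3 with it. The sterol minus fatty acid median for the combination in MM.1S, −0.30, became −0.10 with quantile normalization and −0.45 with normexp.

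With the replicate number as a block, the calls in RPMI-8226 became 1 for UNC0638 (SC5D, near background) and 4 for the combination, and the response difference for UNC0638 became 3, with SREBF1 and FASN beside SQLE. The same numbers correlated at 0.0847 to 0.225 in MM.1S, over 0.1 in 5 of 6 pairs of groups, so the numbers were not taken to pair the MM.1S arrays, although a number is a slide row in both lines. In MM.1S the block added SQLE (adjusted p = 0.0377), INSIG1 (0.0289), MVK, HSD17B7 and ACACA with GSK126 and lost FDFT1 and TMEM97. With UNC0638 it added HSD17B7 (0.0256) and STARD4 (0.0442) and lost DHCR7 (0.0544). Against GSK126 the combination gained SREBF1 and lost ACLY, and against UNC0638 it gained MVK, SQLE, HSD17B7 and ACACA. It changed no call of the combination against DMSO and moved no count in that line by over 1.5 times.

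Leaving out each array in turn gave 0 to 13 genes for GSK126 in MM.1S, 2 to 13 for UNC0638, 19 to 25 for the combination, 4 to 14 for the combination against GSK126 and 0 to 11 against UNC0638. In RPMI-8226 it gave 0 to 2 for the combination and 0 in the other comparisons. Between the lines it gave 0 to 1 for GSK126, 0 to 1 for UNC0638, 5 to 10 for the combination and 19 to 22 in DMSO. The sterol minus fatty acid median ranged in MM.1S from −0.53 to −0.43 with GSK126, −0.16 to 0.043 with UNC0638 and −0.43 to −0.21 with the combination, and in RPMI-8226 from −0.08 to 0.02, 0.00 to 0.17 and −0.01 to 0.24. Where an array is left out, the lone array of its group is assumed to vary like the other groups.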
